A study of Mus musculus with 8 samples.

Results

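Interferon-stimulated genes are the genes that cells switch on when interferons reach them. The set described here holds 39 such genes, chosen by name, and all 39 had a row among the 19129 genes tested. They were measured by RNA sequencing in pancreatic tumours of 8 mice. The tumours are isografts, meaning that tumour tissue was transplanted into mice of the same background. The libraries of 4 mice are labelled MEKi, for 7 days of trametinib, a drug that blocks the kinases MEK1 and MEK2 upstream of ERK. The libraries of the other 4 mice are labelled control. The labels do not state what those mice received, nor the strain, sex, age and tumour line of any of the 8. Reads in the tested genes numbered 20182531 to 38569550 in MEKi-labelled libraries and 20090101 to 31797960 in control-labelled libraries, and the members took 0.222% to 0.397% of them under the MEKi label and 0.128% to 0.396% under the control label. The design gives 8 mice for the 8 libraries, so the spread given is that between mice. Before the results, 2 facts about the libraries matter: Dusp6, a readout of the pathway that the drug blocks, was not lower under the MEKi label (values below), and controls 2 and 3 carried much more acinar RNA than the others. Groups are therefore called by their labels throughout.

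Type I interferons signal through a receptor whose kinases activate a complex of STAT proteins with IRF9, and this complex binds a DNA element called ISRE. Interferon gamma, made mostly by T and NK cells, signals through another receptor and a STAT dimer that binds a DNA element called GAS, and it also raises IRF1, which binds ISRE-type elements. The members were sorted by this knowledge into 26 that are best known as type I targets, called type I-like, and 13 that are best known as interferon gamma targets, called interferon-gamma-like. Most genes of either kind answer to both interferons, so the names describe the lists and not the signal that reached the tumours. Members and lists were chosen with earlier results of these data known.

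The bases before the start site of 6 members, all with a match, are shown because these elements define the pathway. In each the capitals mark matches to the core of the ISRE (2 copies of GAAA in the same direction with any 2 bases between them) or to the GAS (TTCNNNGAA), searched on both strands in the 250 bases before the start site. The sequences are from RefSeq on GRCm38.p6 and are written 5′ to 3′ on the strand of the gene. chr19:34640639-34640888 on the plus strand precedes Ifit1, chr4:156200819-156201068 on the minus strand precedes Isg15, and chr12:26456453-26456702 on the minus strand precedes Rsad2, all type I-like. chr3:142530086-142530335, chr11:58199306-58199555 and chr11:53769764-53770013, all on the plus strand, precede the interferon-gamma-like members Gbp7, Igtp and Irf1.
Ifit1: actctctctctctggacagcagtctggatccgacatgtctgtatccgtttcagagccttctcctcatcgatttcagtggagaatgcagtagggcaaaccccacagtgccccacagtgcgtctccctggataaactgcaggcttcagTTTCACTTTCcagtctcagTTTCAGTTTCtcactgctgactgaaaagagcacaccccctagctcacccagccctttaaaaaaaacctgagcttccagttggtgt
Isg15: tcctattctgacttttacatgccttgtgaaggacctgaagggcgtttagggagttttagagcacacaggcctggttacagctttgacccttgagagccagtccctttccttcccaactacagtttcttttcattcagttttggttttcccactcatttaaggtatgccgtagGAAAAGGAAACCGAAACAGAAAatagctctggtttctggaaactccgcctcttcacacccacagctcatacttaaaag
Rsad2: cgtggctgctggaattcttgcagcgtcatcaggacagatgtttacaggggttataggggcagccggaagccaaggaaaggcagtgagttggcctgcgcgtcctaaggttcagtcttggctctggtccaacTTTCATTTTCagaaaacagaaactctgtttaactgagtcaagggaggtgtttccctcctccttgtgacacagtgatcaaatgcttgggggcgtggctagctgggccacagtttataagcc
Gbp7: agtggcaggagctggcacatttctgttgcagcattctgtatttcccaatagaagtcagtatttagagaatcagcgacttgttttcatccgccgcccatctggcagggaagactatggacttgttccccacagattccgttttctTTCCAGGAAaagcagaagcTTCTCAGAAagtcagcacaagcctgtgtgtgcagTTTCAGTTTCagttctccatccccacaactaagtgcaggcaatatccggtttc
Igtp: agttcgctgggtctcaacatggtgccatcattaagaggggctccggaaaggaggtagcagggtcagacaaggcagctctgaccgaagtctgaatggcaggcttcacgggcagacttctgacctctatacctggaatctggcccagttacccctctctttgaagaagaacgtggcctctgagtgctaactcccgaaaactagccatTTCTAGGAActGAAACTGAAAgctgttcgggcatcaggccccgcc
Irf1: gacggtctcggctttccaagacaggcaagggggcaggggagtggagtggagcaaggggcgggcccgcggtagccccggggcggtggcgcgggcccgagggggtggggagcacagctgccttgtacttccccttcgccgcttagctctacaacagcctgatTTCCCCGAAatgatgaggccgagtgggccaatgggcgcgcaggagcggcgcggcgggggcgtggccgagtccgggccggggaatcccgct
Ifit1 holds 2 ISRE cores, Isg15 holds 3 in a row, each overlapping the next, and Rsad2 holds 1. Gbp7 holds 1 ISRE core and 2 GAS matches, Igtp holds 1 of each, and Irf1 holds 1 GAS match and 0 ISRE cores.

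RefSeq start sites were matched for 27 of the 39 members. An ISRE core was found for 15 of the 27 (55.6%) and a GAS match for 8 (29.6%), while the shares among all 27025 genes in that table were 3.46% and 8.13%. Among type I-like members 8 of 18 held an ISRE core and 4 of 18 a GAS match. Among interferon-gamma-like members 7 of 9 held an ISRE core and 4 of 9 a GAS match. ISRE cores were thus not a feature of the type I-like list alone. In Bst2 the GAS match overlaps an ISRE core. These matches describe letters in the window and are not evidence that a factor binds there.

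Per length, the most abundant members were a guanylate-binding protein gene, a surface protein gene and a chemokine gene. The median over the 8 libraries was 115 RPKM (reads scaled to exon length and to the library total) for Gbp2, 110 RPKM for Bst2 and 66.0 RPKM for Cxcl9. The lowest members were Rsad2 at 1.13 RPKM, Mx2 at 1.35 RPKM and Oas3 at 1.98 RPKM. Reads per member and library ranged from 31, for Mx2, to 19630, for Iigp1, so no member was at 0 in any library. Exons of 16 members overlap exons of another gene in the annotation, among them Gbp4 and Gbp9, which overlap each other on the same strand. Some of the 16, such as Irf7, Irf1 and Cxcl10, overlap only a gene on the opposite strand. Members of the guanylate-binding protein, OAS and IFIT families also have near-identical copies. The sources used here do not say how reads were divided between them, so values of these members are uncertain.

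No interferon-stimulated gene of the set passed the test between the labels. Limma, fitted on all 19129 genes with Benjamini-Hochberg adjustment, called 0 of the 39 members, and 0 had an unadjusted p under 0.05. Over all genes tested it called 0.00523%, a single gene that is no member, and 1.77% had an unadjusted p under 0.05. MEKi-labelled libraries lay entirely above control-labelled libraries for 0 members, against 0.565% of all genes, and entirely below for 0 members, against 0.701%. The groups overlapped for every member.

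In sign, the 13 interferon-gamma-like members were all higher under the MEKi label and the type I-like members were mixed. Differences are MEKi minus control on the variance-stabilised log2 scale of the deposited values, where a step of 1 stands for about 2 times the reads in abundant genes and for a larger ratio in genes with few reads. The median difference was 0.50 for interferon-gamma-like members, with a range of 0.11 to 0.78. It was 0.13 for type I-like members, with 20 higher and 6 lower and a range of -0.22 to 0.33. Over all genes tested the median was 0.0055, and 51.6% were higher. A difference above 0.5 was seen for 6 of 13 interferon-gamma-like members and for 0 of 26 type I-like members, against 0.523% of all genes. Members vary together, so these counts are not independent observations, and the difference between the lists was not tested. The lists were also made with earlier results of these data known.

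**Figure D1:**
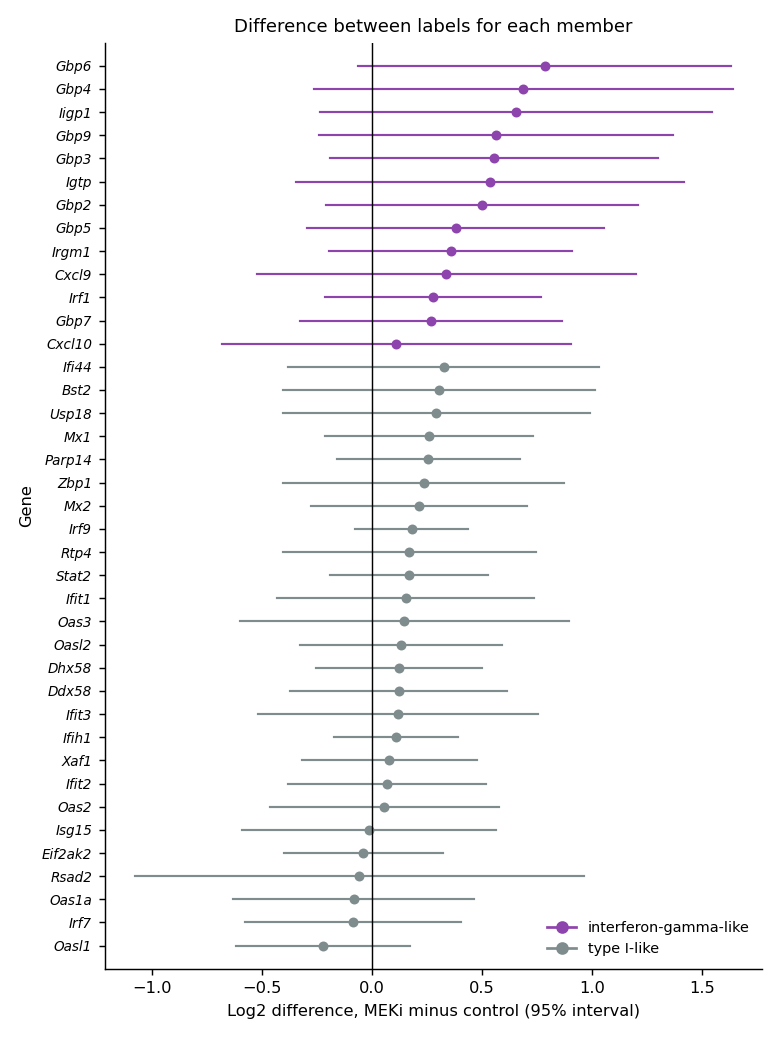
Log2 difference (MEKi minus control) of each member with its 95% interval from limma, interferon-gamma-like members above and type I-like members below, 4 libraries per label. Every interval includes 0, and the 13 interferon-gamma-like points lie to the right of 0.

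Single libraries set these medians. Without control 3 the median difference was 0.24 for the interferon-gamma-like and -0.062 for the type I-like members, and without control 4 it was 0.79 and 0.22. Control 3 and control 2 carried the most acinar RNA, from the enzyme-secreting cells of normal pancreas, and 10 acinar marker genes took 3.89% of reads in control 2 and 11.3% in control 3. In the MEKi-labelled libraries they took 0.00127% to 0.239%, and in controls 1 and 4 they took 0.0511% and 0.0203%. When the acinar score entered the fit, the median was 0.11 for the interferon-gamma-like and -0.12 for the type I-like members. Without both acinar-rich controls, a setting chosen after seeing the data, it was 0.037 and -0.12, with 8 of 13 and 8 of 26 members higher. An unadjusted p under 0.05 was reached by 10 of 13 interferon-gamma-like and 2 of 26 type I-like members without control 4, against 3.27% of all genes. Without MEKi 2 it was reached by 3 of 13 and 0 of 26, against 2.55% of all genes. Every other fit with 1 library left out gave 0 of 13 and 0 of 26. The mean of the interferon-gamma-like members was highest among controls in control 4 (11.90) and lowest among MEKi-labelled libraries in MEKi 2 (11.05). Leaving out either library widens the difference by construction, and both fits are singled out after their values were seen. In none of these fits was a member called.

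The transcription factors of the pathway differed little. Irf9, the DNA-binding partner of the STAT complex (GRCm38 chromosome 14, 55603571 to 55610030), had 10.98, 10.89, 11.14 and 11.13 in MEKi replicates 1 to 4, against 10.90, 10.86, 10.61 and 11.06 in control replicates 1 to 4. MEKi 3 and MEKi 4 were the highest and control 3 the lowest, and the other libraries lay within a narrow band in between. Its log2 difference was 0.18 (SE 0.11, limma adjusted p = 1), and 0.054 without both acinar-rich controls. Irf1, a factor induced by interferon gamma (chromosome 11, 53770014 to 53778374), had 12.25, 11.81, 12.61 and 12.49 in the MEKi-labelled and 11.98, 11.94, 11.60 and 12.54 in the control-labelled libraries. Control 4 stood with MEKi 3 and MEKi 4 at the top, and MEKi 2 was lower than 3 of the 4 controls. The difference for Irf1 was 0.28 (95% interval -0.22 to 0.77), and 0.14 without control 3 or 0.032 without both acinar-rich controls. Stat2, the other partner in the STAT complex, differed by 0.17, and Irf7, which amplifies type I interferon production, differed by -0.086.

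The sensors of foreign or misplaced nucleic acid differed between the labels by 0.24 or less. Ifih1, a sensor of long double-stranded RNA (chromosome 2, 62595798 to 62646255), had 9.82, 9.93, 10.31 and 10.13 under the MEKi label and 9.95, 9.99, 9.78 and 10.04 under the control label. All 8 libraries lay within 0.53, and the difference was 0.11 (SE 0.13). Zbp1, which senses left-handed nucleic acid and can start cell death (chromosome 2, 173206612 to 173218923), had 10.15, 9.82, 10.83 and 10.28 in MEKi-labelled libraries, against 10.23, 10.05, 9.28 and 10.58 in control-labelled libraries. Its range of 1.55 was the widest of the sensors, with MEKi 3 at the top and control 3 at the bottom. The difference was 0.24 (interval -0.40 to 0.87), and -0.016 without control 3. Ddx58, which encodes RIG-I, differed by 0.12, Dhx58, which encodes its relative LGP2, by 0.12, and Eif2ak2, which encodes the kinase PKR, by -0.041.

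The IFIT genes and Rsad2 encode proteins that act on viral RNA or viral replication. Ifit1, which encodes a protein that binds foreign RNA ends (chromosome 19, 34640871 to 34650009), had 8.39, 8.86, 9.03 and 8.93 in MEKi replicates 1 to 4, against 9.13, 8.86, 7.90 and 8.72 in control replicates 1 to 4. The highest and the lowest library were both controls, and the difference was 0.15 (SE 0.26), or -0.10 without control 3. Rsad2, which encodes the antiviral enzyme viperin (chromosome 12, 26442746 to 26456452), had 7.08, 7.89, 8.47 and 6.80 under the MEKi label and 8.54, 8.05, 6.88 and 7.00 under the control label. MEKi 2, MEKi 3, control 1 and control 2 formed a high set and the other 4 a low set, so each label held 2 of each. The difference between labels was -0.058 (interval -1.08 to 0.96). Its reads ranged from 43 to 353 per library, few enough for the scale to pull the low values together. Ifit2 and Ifit3 differed by 0.068 and 0.12.

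The OAS enzymes make a short messenger that activates RNA decay when they meet double-stranded RNA. Oasl1, an OAS-like gene without that enzyme activity (chromosome 5, 114923240 to 114937915), had 8.87, 8.54, 8.65 and 8.53 in MEKi-labelled libraries, against 9.09, 9.21, 8.56 and 8.63 in control-labelled libraries. Controls 1 and 2 were highest, and the other 6 libraries lay close together. Its difference of -0.22 (SE 0.18) was the lowest of all members. Oas3 (chromosome 5, 120753098 to 120777661) had 8.45, 8.68, 9.64 and 8.20 under the MEKi label and 8.78, 8.92, 7.86 and 8.83 under the control label. MEKi 3 stood above and control 3 below the remaining 6. The difference was 0.15 (interval -0.60 to 0.89), and -0.15 without MEKi 3 or -0.098 without control 3. Oasl2, Oas2 and Oas1a differed by 0.13, 0.056 and -0.084.

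Mx1, a GTPase against influenza-type viruses (chromosome 16, 97447035 to 97462907), had 8.16, 7.92, 8.77 and 8.61 in MEKi-labelled libraries, against 8.36, 8.15, 7.80 and 8.11 in control-labelled libraries. MEKi 3 and MEKi 4 were above all 4 controls, while MEKi 1 and MEKi 2 were within their range. The difference was 0.26 (SE 0.21), and 0.13 without both acinar-rich controls. Bst2, which encodes tetherin, a protein that holds budding virus at the cell surface (chromosome 8, 71534255 to 71537456), had 11.69, 11.30, 11.68 and 11.35 under the MEKi label and 11.25, 11.25, 10.24 and 12.07 under the control label. Control 4 was highest and control 3 lowest, with the MEKi-labelled libraries inside that span. The difference was 0.30 (interval -0.41 to 1.01), or -0.018 without control 3. Mx2, annotated as a polymorphic pseudogene, differed by 0.21.

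Isg15 encodes a ubiquitin-like protein that is attached to other proteins, and Usp18 encodes the protease that removes it and also damps the type I receptor. Isg15 differed by -0.014 and Usp18 by 0.29. Parp14, which encodes an ADP-ribosyltransferase (chromosome 16, 35832874 to 35871544), had 12.02, 11.83, 12.28 and 12.41 in MEKi replicates 1 to 4, against 11.82, 11.82, 11.52 and 12.35 in control replicates 1 to 4. Control 4 reached the MEKi 3 and MEKi 4 values, and the difference was 0.26 (SE 0.19), or 0.048 without both acinar-rich controls. Ifi44 (chromosome 3, 151730922 to 151749960) had 8.60, 9.07, 9.44 and 9.64 under the MEKi label and 9.28, 8.96, 7.98 and 9.22 under the control label. The libraries with the lowest values were control 3 and then MEKi 1, and the difference was 0.33 (interval -0.38 to 1.03), or -0.064 without both acinar-rich controls. Xaf1, a gene of a pro-apoptotic protein, differed by 0.079, and Rtp4, which encodes a receptor transporter protein, by 0.17.

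The guanylate-binding proteins, GTPases that attack membranes around intracellular microbes, had the widest differences among the roles. All 7 were higher in sign under the MEKi label, with a median of 0.55 and 0 called. Gbp6 (chromosome 5, 105270702 to 105293698) had 9.45, 9.23, 10.07 and 10.74 in MEKi-labelled libraries, against 8.96, 8.76, 8.61 and 10.01 in control-labelled libraries. The 4 MEKi values and control 4 all lay above the remaining 3 controls. The difference of 0.78 was the highest of all members and had the smallest unadjusted p among them, 0.0661 (SE 0.38, 95% interval -0.064 to 1.63, limma adjusted p = 1), and it was 0.50 without MEKi 4 and 0.38 without both acinar-rich controls. Per length, Gbp6 averaged 6.47 RPKM under the MEKi label and 3.39 RPKM under the control label. Gbp4 (chromosome 5, 105115767 to 105139586) had 10.76, 10.45, 11.92 and 12.03 in MEKi-labelled libraries, against 10.85, 10.35, 9.81 and 11.41 in control-labelled libraries. MEKi 3 and MEKi 4 were above every control, MEKi 1 and MEKi 2 were not, and the range of 2.22 was the widest of all members. The difference was 0.69 (SE 0.42), and 0.16 without both acinar-rich controls. Gbp9, Gbp3, Gbp2, Gbp5 and Gbp7 differed by 0.56, 0.55, 0.50, 0.38 and 0.27.

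The immunity-related GTPases, a family that guards against vacuolar parasites in mice, followed the same libraries. Iigp1 (chromosome 18, 60376027 to 60392634) had 12.87, 12.63, 13.57 and 13.62 in MEKi replicates 1 to 4, against 12.52, 12.11, 11.75 and 13.70 in control replicates 1 to 4. Control 4 was the highest of all 8 libraries, and the other 3 controls were the lowest. The difference was 0.65 (interval -0.24 to 1.54), and 0.061 without both acinar-rich controls. Igtp differed by 0.53 and Irgm1, which protects the cell's own membranes from these GTPases, by 0.36.

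Cxcl9 and Cxcl10 encode chemokines that draw in T cells through the receptor CXCR3. Cxcl9 (chromosome 5, 92321347 to 92328079) had 12.63, 12.10, 13.21 and 12.29 under the MEKi label and 12.32, 11.84, 11.41 and 13.32 under the control label. Control 4 and MEKi 3 were highest, and the difference was 0.34 (SE 0.38), or -0.26 without both acinar-rich controls. Cxcl10 (chromosome 5, 92346638 to 92348889) had 9.51, 9.58, 10.60 and 9.55 under the MEKi label and 10.12, 9.96, 8.67 and 10.04 under the control label. Apart from MEKi 3, the MEKi-labelled libraries lay below 3 of the 4 controls, and the difference of 0.11 was -0.15 without MEKi 3 and -0.23 without control 3.

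**Figure D2:**
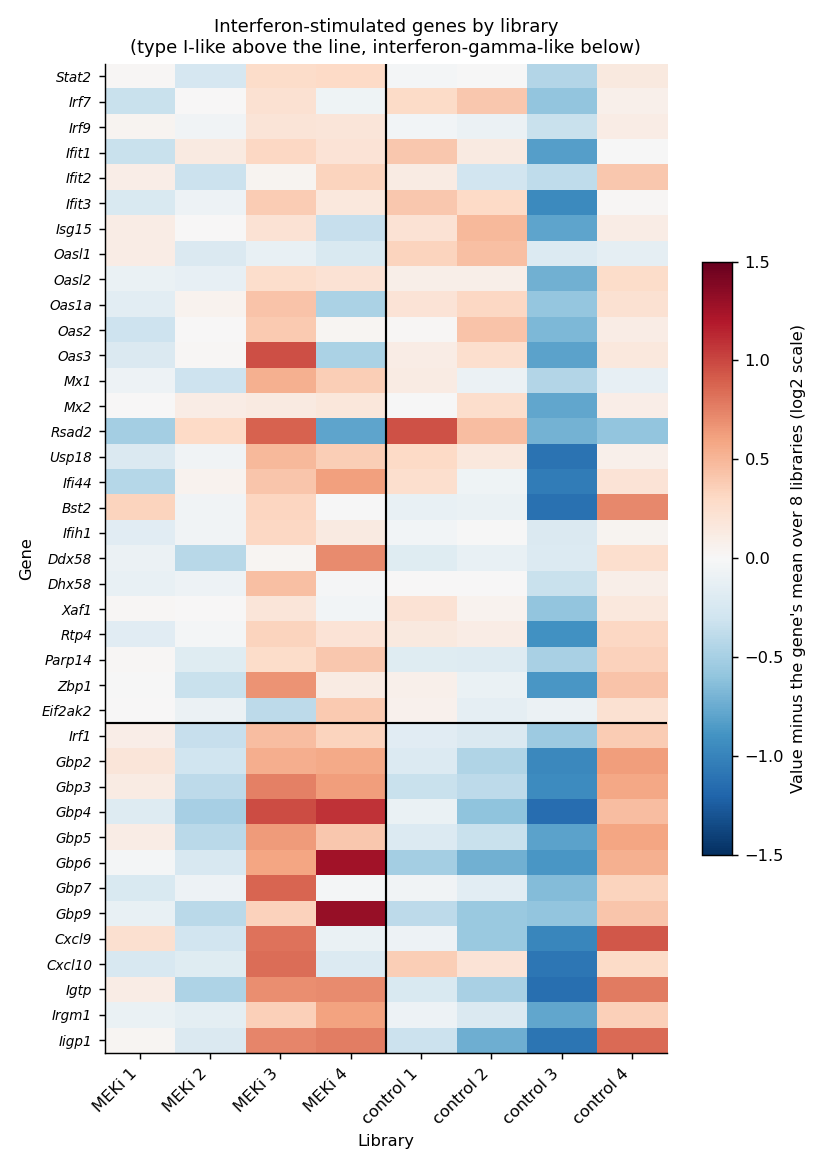
Each cell is a member's value minus its own mean over the 8 libraries (log2 scale), with MEKi-labelled libraries left of the vertical line, type I-like members above and interferon-gamma-like members below the horizontal line. Control 3 is the lowest library for 35 of the 39 rows, and in each of the 13 rows of the lower block the single highest library is MEKi 3, MEKi 4 or control 4.

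Most members had their lowest value in the same library, and the labels overlapped for every member. Control 3 was the lowest library for 22 of 26 type I-like and all 13 interferon-gamma-like members, whereas it was the lowest for 1918 of all 19129 genes tested. The 4 exceptions, named after their values were seen, were Rsad2 and Oasl1, lowest in MEKi 4, Eif2ak2, lowest in MEKi 3, and Ddx58, lowest in MEKi 2. At the upper end, 9 type I-like members were highest in MEKi 3, 5 in MEKi 4, 4 in control 1, 5 in control 2 and 3 in control 4. The interferon-gamma-like members were highest in MEKi 3 for 5, in MEKi 4 for 4 and in control 4 for 4. Over all genes tested, MEKi 3 was highest for 16.0% and MEKi 4 for 23.2%. Control 1 was highest for 9.76%, control 2 for 10.9% and control 4 for 10.4%. MEKi 4 was also the lowest library for 21.6% of all genes, so that it was often at either end whatever the gene. Controls 1 and 2 were the highest library for 9 type I-like members and for 0 interferon-gamma-like members.

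The score of a list, the mean value of its members in a library, shows where the lists part. The type I-like score was 9.39, 9.42, 9.81 and 9.59 in MEKi replicates 1 to 4, against 9.64, 9.60, 8.87 and 9.64 in control replicates 1 to 4. Apart from control 3, set aside here after its value was seen, the controls lay close together. Of the 4 MEKi-labelled libraries 3 lay below all 3 of them, MEKi 4 by the least. The means were 9.55 ± 0.19 under the MEKi label and 9.44 ± 0.38 under the control label (SD, n = 4 each), a difference of 0.12. The control mean without control 3 was 9.63 ± 0.02 (SD, n = 3), which turns the difference to -0.073. The interferon-gamma-like score was 11.35, 11.05, 12.02 and 11.92 under the MEKi label and 11.18, 10.96, 10.46 and 11.90 under the control label. MEKi 3, MEKi 4 and control 4 formed the top, and MEKi 2 lay among controls 1 and 2. The means were 11.59 ± 0.46 under the MEKi label and 11.12 ± 0.60 under the control label (SD, n = 4 each).

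The gap between the scores, interferon-gamma-like minus type I-like, was 1.97, 1.63, 2.21 and 2.33 in MEKi-labelled libraries, against 1.54, 1.36, 1.59 and 2.26 in control-labelled libraries. MEKi 4, control 4 and MEKi 3 had the widest gaps, and controls 1, 2 and 3 had the narrowest. The levels of different genes enter this gap, so its size in a single library has no meaning of its own and only its change between libraries can be read. It averaged 2.03 ± 0.31 under the MEKi label and 1.69 ± 0.40 under the control label (SD, n = 4 each), a difference of 0.35 that was within the spread of the controls and became 0.54 without control 4. Control 3, the lowest library in both scores, had a gap like that of controls 1 and 2.

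**Figure D3:**
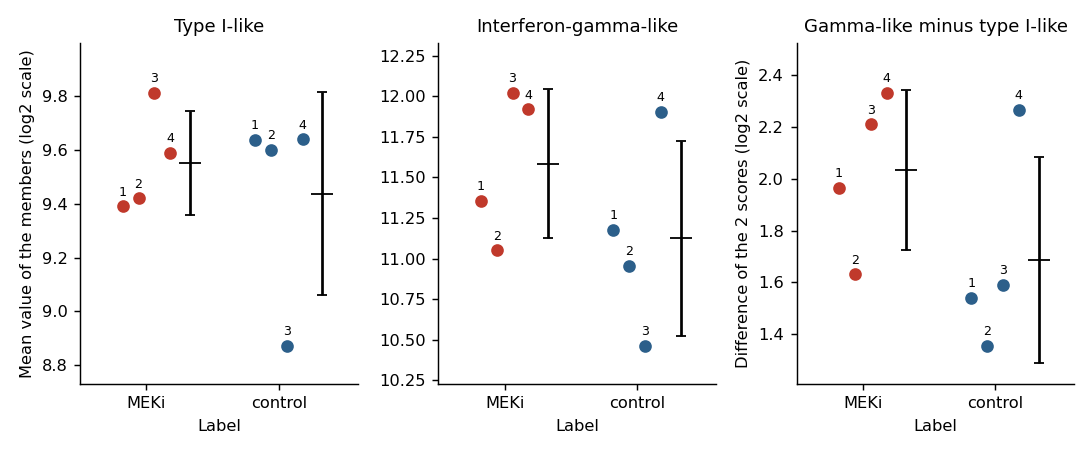
List scores per library (points numbered by replicate, MEKi-labelled left of control-labelled) with mean and SD of 4 libraries beside them, for type I-like members, interferon-gamma-like members and the difference of both scores, on the log2 scale. The labels overlap in every panel, control 3 is lowest in the left and middle panels, and control 4 stands with MEKi 3 and MEKi 4 in the middle and right panels.

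The labelled tissue held the cell types that could supply these transcripts. Ductal tumour epithelium markers scored 12.64 to 13.51 under the MEKi label and 13.22 to 13.43 under the control label, with Krt19 at or above 14.23 in every library. The lowest score, 12.64, was that of MEKi 4. Epcam, of the same list and named after its values were seen, had 10.70 in MEKi 4 and 12.66 to 13.10 in the other libraries. In bulk tissue, fewer cells of a type and less RNA per cell cannot be told apart. Ifng, the gene of interferon gamma and the only interferon gene of the 21 listed with a row in the table, had 14, 5, 32 and 16 reads in MEKi replicates 1 to 4, against 6, 14, 4 and 9 reads in control replicates 1 to 4. MEKi 3 had the most and control 3 the fewest, and at this depth the difference of 0.16 (SE 0.14) could not be told from 0. With so few reads the scale pulls values together. Fitted on the reads with limma's voom, the difference was 0.51 (SE 0.50). Scaled to the library total, Ifng had 0.25 to 1.07 RPM under the MEKi label and 0.18 to 0.45 RPM under the control label.

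T cell markers scored 8.97, 7.77, 8.95 and 8.36 under the MEKi label and 8.18, 8.33, 8.18 and 9.31 under the control label. Control 4, MEKi 1 and MEKi 3 were high, of which control 4 and MEKi 3 were also high in the interferon-gamma-like score, while MEKi 4 was high in that score with fewer T cell markers. NK cell markers scored 6.59 to 7.31 under the MEKi label and 6.53 to 7.17 under the control label, highest in MEKi 3 and lowest in control 3. Reads of the 10 T cell markers summed to 67.4 to 213 RPM under the MEKi label and 81.8 to 285 RPM under the control label. Those of the 7 NK markers summed to 16.0 to 38.3 RPM under the MEKi label and 13.5 to 42.2 RPM under the control label, and no marker of either list was at 0 in any library. Their part in the result was not tested.

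Macrophage markers scored 11.04 to 11.31 under the MEKi label and 11.18 to 11.80 under the control label, and control 3, at 11.18, was the lowest control by a small margin. Of the 10 macrophage markers 9 were lower in sign under the MEKi label, with 0 called. Fibroblast markers averaged 12.52 ± 0.33 under the MEKi label and 12.88 ± 0.49 under the control label, and endothelial markers 9.12 ± 0.29 under the MEKi label and 9.38 ± 0.63 under the control label (SD, n = 4 each). Dendritic cell markers scored 7.50 to 8.87 under the MEKi label and 7.36 to 8.16 under the control label. B cell markers scored 6.20 to 8.27 under the MEKi label and 5.99 to 7.13 under the control label, and both lists were highest in MEKi 3 and lowest in control 3. Neutrophil markers scored 7.71 to 10.04 under the MEKi label and 8.65 to 8.98 under the control label, also highest in MEKi 3. Plasmacytoid dendritic cell markers, of cells that make much type I interferon, scored 8.26 to 8.86 under the MEKi label and 8.68 to 9.63 under the control label. That list holds Klk1, which also follows the acinar libraries with 14.4 in control 2 and 15.6 in control 3, whereas Siglech, a more specific marker, had 6.20 to 7.37 under the MEKi label and 6.21 to 6.98 under the control label. The part of these cells in the member values was not tested. The acinar score was 15.2 in control 2 and 16.9 in control 3, and these libraries had the lowest interferon-gamma-like scores of all 8, 10.96 in control 2 and 10.46 in control 3. In the other libraries the acinar score was 6.05 to 11.5. In rising order they were MEKi 3 (6.05), control 4 (8.56), MEKi 2 (8.59), MEKi 1 (9.18), control 1 (9.31) and MEKi 4 (11.5). Their interferon-gamma-like scores were, in that order, 12.02, 11.90, 11.05, 11.35, 11.18 and 11.92. A link between the 2 scores was not tested. The type I-like score was 9.60 in control 2 and 8.87 in control 3.

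Other genes of the pathway, listed with earlier results of these data known, were also without calls. Of 11 receptor and JAK-STAT genes 6 were higher and 5 lower in sign, with a median of 0.0067. The receptor genes Ifnar1, Ifnar2, Ifngr1 and Ifngr2, named after their values were seen, all differed by amounts from -0.070 to 0.061. Of 12 measured genes that lead to interferon production 6 were higher and 6 lower, with a median of 0.010. The gene with the smallest p was Ikbke, a kinase gene that activates interferon regulatory factors, with 10.82, 10.67, 10.65 and 10.42 under the MEKi label and 10.87, 10.96, 10.84 and 10.68 under the control label. Its difference was -0.20 (interval -0.44 to 0.045). Of 9 measured genes that damp the response 6 were higher, and Cish, a suppressor of cytokine signalling, had the smallest p at 9.15 ± 0.19 under the MEKi label and 8.93 ± 0.11 under the control label (SD, n = 4 each).

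Of 36 further interferon-induced genes 27 were higher and 9 lower in sign, with a median of 0.16 and 0 called. Here 1 of 36 had an unadjusted p under 0.05, near the 1.77% of all genes. It was Ifitm3, which encodes a membrane protein that blocks virus entry, with 11.65, 11.63, 11.67 and 10.77 in MEKi-labelled libraries, against 11.78, 12.33, 11.90 and 12.01 in control-labelled libraries. All 4 MEKi values lay below all 4 control values, by the least between MEKi 3 and control 1, as was the case for 0.701% of all genes. The difference was -0.58 (SE 0.21, limma adjusted p = 1), and -0.36 without MEKi 4. Genes of families close to the interferon-gamma-like members, named after their values were seen, had positive differences: 0.58 for Tgtp2, 0.58 for Gbp11, 0.54 for Gbp8 and 0.37 for Irgm2. The MHC class II transactivator gene Ciita, named in the same way, differed by 0.58. In the same families Tgtp1 differed by 0.50 and Gbp10 by 0.45. Elsewhere in the list the differences went either way, with 0.38 for Ifitm2 and -0.51 for Ifi27l2a. Smaller ones were Psmb10 at 0.0052, Psmb8 at 0.059, Tap1 at 0.13, Cd274 at 0.16 and Nlrc5 at 0.20. All of these were also named after their values were seen.

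Dusp6, an ERK-induced phosphatase gene that serves as a readout of ERK signalling (chromosome 10, 99263231 to 99267489), had 8.88, 12.12, 12.20 and 11.01 in MEKi replicates 1 to 4, against 12.19, 12.14, 9.31 and 9.24 in control replicates 1 to 4. Both labels held libraries with high and with low Dusp6, and the label difference was 0.33 (interval -1.70 to 2.36). Over 9 genes of ERK output, Dusp6 among them, 6 were higher and 3 lower in sign under the MEKi label, with 0 called. The lowering of ERK output that an inhibitor of MEK would bring was thus not seen between the labels, and differences in the member genes are differences between labels. The 8 libraries fell into a low cluster of MEKi 1, control 3 and control 4 and a higher cluster of the other 5, neither large enough for a correlation. No correlation with Dusp6 is therefore given, and the values are set side by side.

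In the low cluster the interferon-gamma-like score was 11.35 in MEKi 1, 10.46 in control 3 and 11.90 in control 4, which covers nearly the whole span of the 8 libraries. In the higher cluster it was 11.05 in MEKi 2, 12.02 in MEKi 3, 11.92 in MEKi 4, 11.18 in control 1 and 10.96 in control 2. The highest and lowest scores thus occurred at Dusp6 values of 12.20 and 9.31, and libraries with nearly equal Dusp6, MEKi 3 and control 1, had scores of 12.02 and 11.18. The type I-like score in the low cluster was 9.39 in MEKi 1, 8.87 in control 3 and 9.64 in control 4. In the higher cluster it was 9.42 to 9.81. The lowest type I-like scores, those of control 3 and MEKi 1, were thus both in the low cluster. For Rsad2, singled out after its values were seen, the 4 libraries with the highest Rsad2 were the 4 with the highest Dusp6. MEKi 4, at 11.01 for Dusp6, had the lowest Rsad2, 6.80. With Dusp6 as a covariate, the median difference was 0.51 for the interferon-gamma-like and 0.095 for the type I-like members, with 0 members called.

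**Figure D4:**
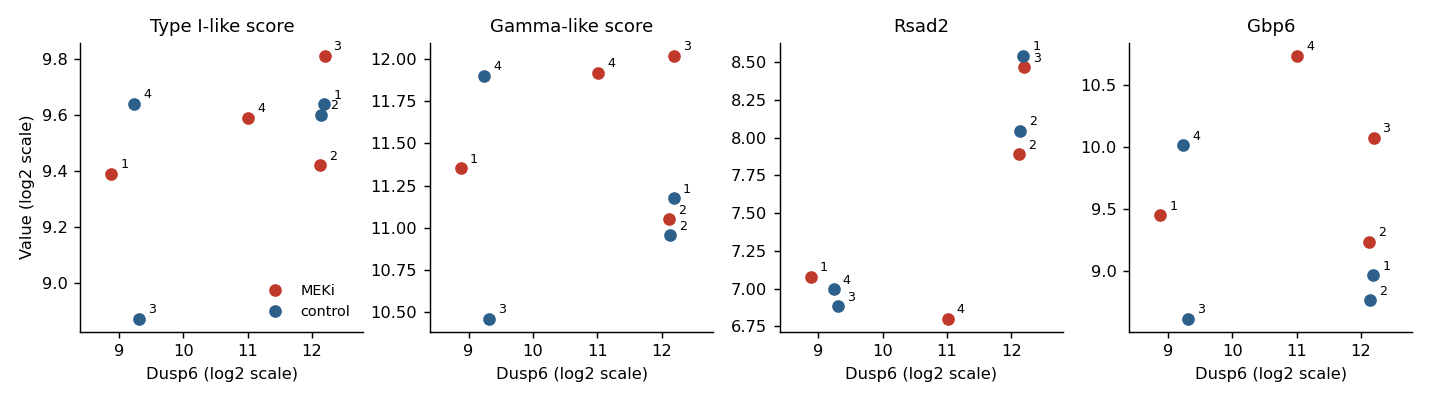
Type I-like score, interferon-gamma-like score, Rsad2 and Gbp6 (vertical axes, log2 scale) against Dusp6 (horizontal axis, log2 scale) in 4 MEKi-labelled and 4 control-labelled libraries, numbered by replicate. The interferon-gamma-like score is spread widely at low and at high Dusp6. The type I-like score is 8.87 to 9.64 at low Dusp6 and 9.42 to 9.81 at high Dusp6. Rsad2 is at 7.89 or above only in the 4 libraries with Dusp6 at 12.12 or above.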

How the data were processed

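RNA of 8 tumours was sequenced from stranded total RNA libraries, per the labels' protocols. STAR 2.5.3a, DESeq2 1.18.1 and the build GRCm38 are named in the submitters' processing notes, and neither an annotation nor a counting tool is. The authors deposited log2 values after variance stabilisation, going by the file's name, with a floor of 5.12 for 0 reads. Undoing the transformation with this floor gave whole reads (within 0.01) for 100% of values under 2000 reads, and these reads gave depth and RPKM with GENCODE M21 exon lengths. Of 19431 rows, 32 naming no gene, with 0.101% to 0.167% of reads, were left out, and 86 symbols with several rows kept that of highest mean. No pair of libraries was within sampling noise (closest pair at 4.38 times that noise).

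Tests across genes used limma 3.58.1 on R 4.3.3 (eBayes with a trend, no covariate, two-sided, Benjamini-Hochberg over all 19129 genes, threshold 0.05), tested on simulated data. Members, lists and alternatives were chosen with earlier results of these data known. Values by library are given for the member of each role with the smallest p and that with the widest range, and for the gene with the smallest p in the pathway lists. That gene is not reported here for the receptor and JAK-STAT list. Other genes are named as chosen after their values were seen. Lists are described by counts, medians and scores, with no test. Alternatives were an acinar or a Dusp6 covariate, a replicate block, each library left out, voom on recovered reads, array weights, quantile normalization or shifted medians, moderation that was robust or had no trend, every named row, and only the 75% of genes with the highest mean. Figures used matplotlib 3.10.9.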

Additional observations from a re-analysis of the deposited data

Results flagged for a closer look

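Within a group of 4 libraries, a value was singled out where its gap to the nearest of the others took most of the group's range by Dixon's test at 95%. Of 96 such groups over the members, the scores and the other genes given by library, 9 met this, where chance gives about 1 in 20. In 6 of the 9, control 3 was far below the other controls: Oas1a at 8.31, Oas3 at 7.86, Usp18 at 6.96, Rtp4 at 8.12, Cxcl10 at 8.67 and the type I-like score at 8.87. MEKi 3 was far above the other MEKi-labelled libraries for Dhx58 at 8.66 and Cxcl10 at 10.6, and MEKi 4 was far below them for Ifitm3 at 10.8. These values share libraries and are not independent of each other.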

How the results depend on the processing

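No member was called under any of the alternatives, and the smallest adjusted p of a member over them was 0.984. The count of genes called, 1 in the report, was 0 with the 75% of genes with the highest mean, with the acinar or the Dusp6 covariate and with the replicate block, 4 without both acinar-rich controls (chosen after seeing the data), and 0 to 2 with each library left out. The median difference over all 39 members, 0.18, was -0.042 with the acinar covariate and -0.039 without both acinar-rich controls, and 0.028 to 0.28 with each library left out. For type I-like members it was -0.12 in both of those settings and -0.062 to 0.22 with each library left out. For interferon-gamma-like members it was 0.24 to 0.79 with each library left out and turned negative under no alternative. Their median minus that of the type I-like members, 0.37, stayed between 0.16 and 0.57. With the acinar covariate the difference was -0.15 for Bst2, -0.40 for Cxcl10, -0.29 for Cxcl9, -0.0013 for Ifi44, -0.12 for Ifit1, -0.28 for Oas3 and -0.17 for Zbp1. Without both acinar-rich controls it was -0.15 for Bst2, -0.27 for Cxcl10, -0.26 for Cxcl9, -0.064 for Ifi44, -0.12 for Ifit1, -0.059 for Oas3 and -0.13 for Zbp1. Dusp6 was at -0.037 with array weights and Rsad2 at 0.0022 with quantile normalization. With each library left out the range was -0.018 to 0.59 for Bst2, -0.23 to 0.25 for Cxcl10, -0.16 to 1.06 for Dusp6, -0.10 to 0.31 for Ifit1, -0.15 to 0.33 for Oas3, -0.36 to 0.25 for Rsad2 and -0.016 to 0.42 for Zbp1. The cause of these turns was not tested.

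The replicate numbers run from 1 to 4 under both labels, but no label says that equal numbers share an origin, and deviations from the group means of same-numbered libraries correlated at -0.33, 0.20, -0.46 and 0.024. The replicate block moved the genes called to 0 and left the members called at 0. With it 2 of 13 interferon-gamma-like and 0 of 26 type I-like members reached an unadjusted p under 0.05, against 0 of 39 without the block. The share of all genes that reached it with the block was not counted, so nothing about the members can be read from this.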
